A study of Arabidopsis thaliana with 12 samples.

Results

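The 10 genes described here encode Aux/IAA repressors of the Arabidopsis embryo, namely IAA8 (AT2G22670), IAA9 (AT5G65670), IAA10 (AT1G04100), IAA11 (AT4G28640), IAA12, also called BODENLOS (AT1G04550), IAA13 (AT2G33310), IAA16 (AT3G04730), IAA18 (AT1G51950), IAA26 (AT3G16500) and IAA27 (AT4G29080). They were chosen by gene identifier from the 29 genes of the family and from the 32399 genes in the data. Transcript levels were measured by RNA sequencing in 12 libraries of Col-0 plants (Col in the labels) grown under long days, with 3 independent biological replicates in each of 4 groups. The groups were the embryo proper of 32-cell embryos (32E), the suspensor of the same stage (32S), and the apical cell (AC) and basal cell (BC) formed by the first division of the zygote. No group carried a mutation, a transgene or a treatment. Each library was amplified from the polyadenylated RNA of a small pool of cells, from embryos isolated by hand whose lineages were separated by laser microdissection. The 32E cells descend from AC and the 32S cells descend from BC, so the comparisons across stage follow a lineage.

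Aux/IAA proteins repress auxin-responsive transcription. They bind auxin response factors (ARFs) and recruit the corepressor TOPLESS (TPL) to the genes that these factors occupy. Auxin holds an Aux/IAA protein against the receptor TIR1 or an AFB protein, through a short stretch called the degron, and the repressor is then ubiquitinated and degraded. In the embryo IAA12 is best known as the repressor of ARF5 (MONOPTEROS) in the specification of the root pole, with IAA13 as its closest relative, and IAA10 has been studied with ARF9 in the suspensor.

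The degron is shown first, because it is what ties these repressors to auxin. In the coding sequences of the TAIR10.1 assembly (RefSeq), all 10 genes held the codons of the degron core, which is glycine, tryptophan and a pair of prolines. Of the 19 other family members, 13 held this core and 6 did not. The sequences below give 36 bases of the degron of the genes on which the results turn, with the core and the following codon in capitals. That codon is for valine in IAA18 and IAA26, isoleucine in IAA12 and IAA13 and leucine in IAA10, the only 1 of the 10 with leucine there.
IAA18: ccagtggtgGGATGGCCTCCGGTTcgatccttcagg
IAA26: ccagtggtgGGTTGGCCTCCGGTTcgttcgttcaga
IAA12: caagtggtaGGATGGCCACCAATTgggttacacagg
IAA13: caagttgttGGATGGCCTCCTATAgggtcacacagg
IAA10: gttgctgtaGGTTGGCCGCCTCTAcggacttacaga
IAA12 and IAA13 were also the most alike of the 10 proteins, with 79.6% of aligned residues identical, followed by IAA18 and IAA26 with 70.9% and IAA8 and IAA9 with 60.6%. No pair among the 406 pairs of family members shared a 100-base stretch in their annotated transcripts.

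Values are FPKM as the authors computed them, which are sequenced fragments scaled for the length of the transcript and the size of the library. Library sums lay between 833418 and 955228 FPKM. No read counts were at hand, so no counting error can be given, and a value of 0 is written as listed at 0. The separation of lineages was checked against marker genes. Markers of the embryo proper (5 genes) exceeded FPKM 1 in 15 of 15 values in 32E, 7 of 15 in 32S, 12 of 15 in AC and 13 of 15 in BC. Their summed level was 3724 to 4462 in 32E, 518 to 1976 in 32S, 401 to 483 in AC and 306 to 327 in BC. Between AC and BC the genes called were DRN and HAN, both higher in AC. WOX2 and ATML1 went the other way without a call and without overlap. WOX2 was at 104 to 126 in AC and 147 to 165 in BC, and ATML1 at 58.7 to 64.8 in AC and 69.0 to 79.1 in BC. PDF1 was listed at 0 in AC and at 0, 0.04 and 2.25 in BC. For 3 basal lineage genes the summed level was 80.6 to 107 in 32E, 775 to 887 in 32S, 7.06 to 10.4 in AC and 986 to 1007 in BC. WOX8, which encodes a basal homeobox factor, was listed at 0 in each 32E library, and HAN, a GATA factor gene of the embryo proper, was listed at 0 in each 32S library. Of the other basal lineage genes, WOX9 was at 96.2, 75.9 and 105 FPKM in 32E, against 244, 361 and 271 in 32S. PIN7 was at 0.81 to 4.70 FPKM in 32E, against 85.5 to 138 in 32S. Endosperm genes were above 1 in 0 of 15 values in 32E, 1 in 32S, 4 in AC and 0 in BC. Those in AC were FWA at 1.18, 3.09 and 1.71 FPKM and IKU2 at 3.47 in replicate 2. Both genes were listed at 0 in each BC library. Seed coat genes were above 1 in 3 of 15 values in 32E, 0 in 32S, 4 in AC and 3 in BC. These seed coat values were all of MUM4, apart from 1 TTG2 value of 1.97 in AC. MUM4 was at 17.4 to 28.3 in 32E, 5.84 to 9.49 in AC and 23.5 to 28.4 in BC. Any part of endosperm or seed coat cells in the levels below was not tested.

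Transcripts of the family were more abundant at the later stage and drew on more genes. No test was run on these sums. Summed FPKM over all 29 genes was 1227 ± 26.5 in 32E, 884 ± 138 in 32S, 315 ± 26.9 in AC and 372 ± 11.98 in BC (SD, n = 3 each). The number of family members above FPKM 1 was 15 in each 32E library, 12 in each 32S library, 7 in each AC library and 5 or 6 in the BC libraries. The 10 genes described here made up 76.8% to 88.4% of the sum in 32E, 77.6% to 94.3% in 32S, 96.4% to 97.6% in AC and 98.6% to 99.0% in BC. IAA8 and IAA9 together held 49.7% to 56.1% in 32E, 64.6% to 74.8% in 32S, 72.0% to 77.3% in AC and 87.7% to 95.4% in BC. IAA18 alone held 14.4% to 16.5% in 32E.

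**Figure D1:**
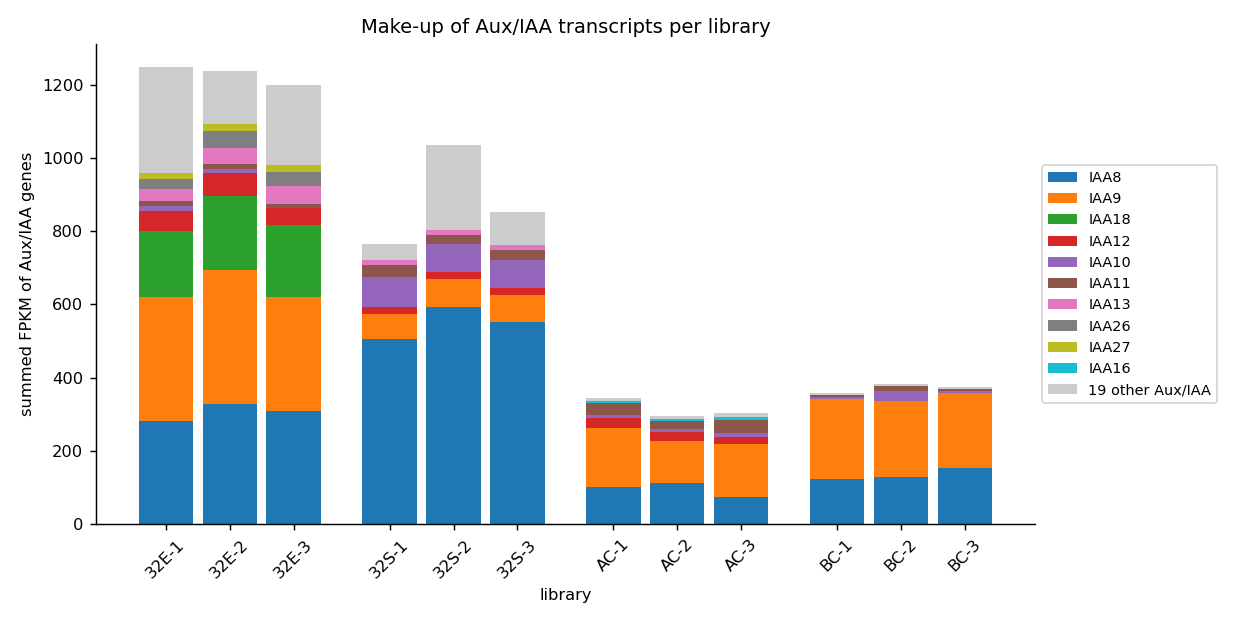
Summed FPKM of the Aux/IAA genes in each library, stacked by gene, with the 19 other family members in grey. IAA8 and IAA9 fill most of each AC and BC column, IAA18 adds 14.4% to 16.5% of the sum in 32E, and the grey part reaches 22.4% in 32S replicate 2, against 5.67% in replicate 1.

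Lineage and stage were compared by limma on log2(FPKM + 1) over 17060 genes, with Benjamini-Hochberg adjustment. A gene was called at an adjusted p under 0.01 and a fold change of at least 2 on that scale, which understates the change of low genes. Between 32E and 32S, 9 of the 10 repressor genes were called, 6 higher in 32E (IAA9, IAA12, IAA13, IAA18, IAA26 and IAA27) and 3 lower (IAA10, IAA11 and IAA16). Over all genes, 23.8% were called higher and 22.6% lower. The median log2 difference was 1.50 over the 10 genes and 0.05 over all genes. At the earlier stage 3 of the 10 were called between AC and BC, all higher in AC (IAA11, IAA12 and IAA16), where 19% of all genes were higher and 18.4% lower, and the median was 0.02 over the 10 genes and 0 over all genes. Across stage, 7 were higher in 32E than in AC and 2 lower, against 13.1% and 14.3% of all genes, with medians of 1.48 and -0.01. In the basal lineage 6 were higher in 32S than in BC and 1 lower, against 25.3% and 26.7% of all genes, with medians of 1.48 and 0. The medians depend on the pseudocount, since several of the 10 genes were listed at 0 in a whole group. The comparisons share groups and are not independent of each other. All 10 genes passed the filter on low values, which asked for FPKM above 1 in 3 libraries, but IAA18, IAA26 and IAA27 did so through the 32E libraries alone and so had to differ. Without these 3 genes, 3 of 7 were higher and 3 lower in 32E than in 32S. Against AC, 4 of 7 were higher in 32E and 2 lower. The 32E minus 32S values of the 7 lay on both sides of 0, from -3.35 for IAA10 to 2.24 for IAA9. The medians of 1.50 and of 1.48 for 32E minus AC include the 3 genes and are no measure of a shift between groups. Among the 7, IAA13 passed the filter through 32E and 32S libraries alone, so its calls across stage in both lineages are a description. In these bulk samples, fewer expressing cells and less RNA per cell cannot be told apart.

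**Figure D2:**
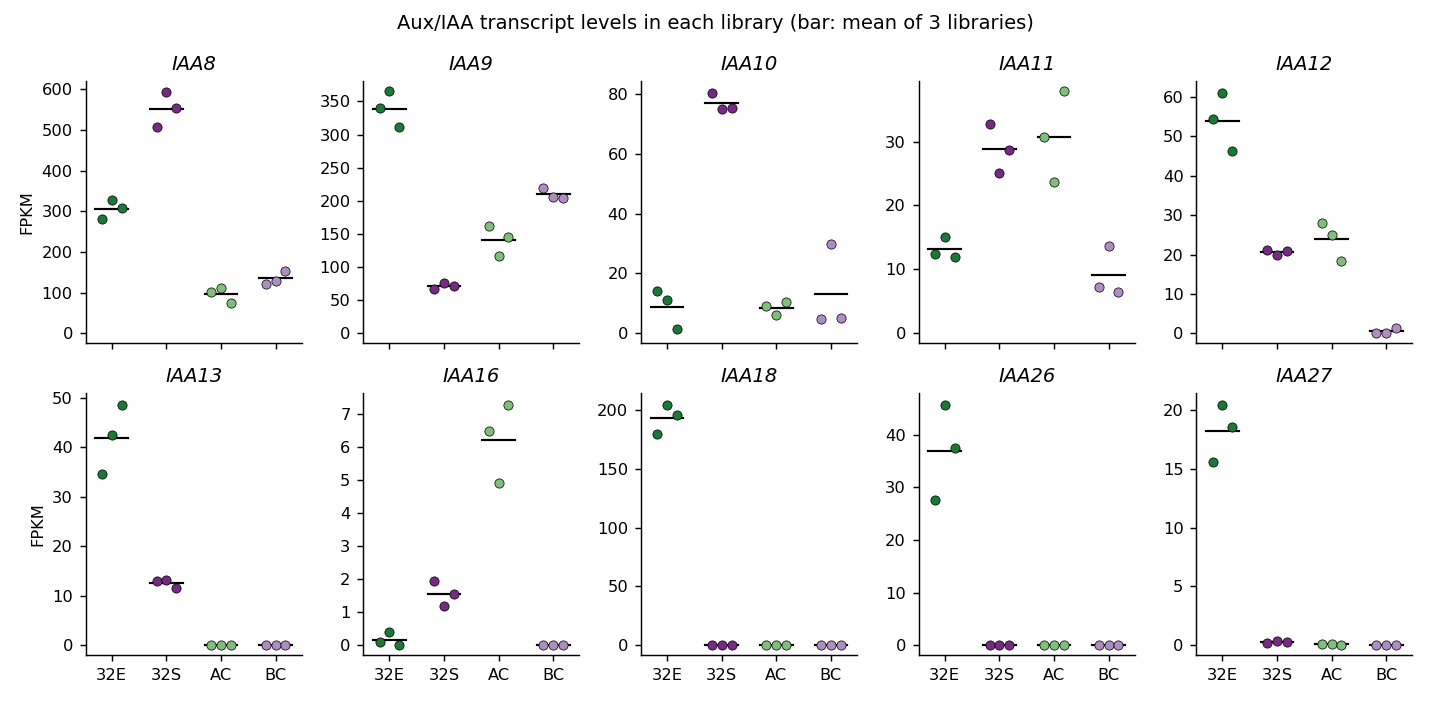
FPKM of the 10 repressor genes in each library, 1 panel per gene with its own axis. Points are libraries and bars are means of 3. IAA18 and IAA26 have values only in 32E apart from 1 value of 0.03 in BC and 1 of 0.04 in AC, whereas IAA8 and IAA9 are present in every library.

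IAA18, IAA26 and IAA27 formed a group confined to the embryo proper in these 12 libraries, apart from values under 1. Dominant mutations of IAA18, at chromosome 1 from 19305081 to 19307518 on the plus strand, are known to disturb the apical part of the embryo. IAA18 was at 180, 204 and 195 FPKM in 32E, and was listed at 0 in every 32S and AC library and at 0, 0.03 and 0 in BC. The 32E libraries did not overlap with any other library. Because IAA18 passed the filter through these libraries alone, no test is given, and because the other groups were listed at or near 0, no fold.

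IAA26, also known as PAP1, lies on the minus strand of chromosome 3 from 5612203 to 5614803. It was at 27.6, 45.6 and 37.4 FPKM in 32E, and was listed at 0 in all 32S libraries, at 0.04, 0 and 0 in AC and at 0 in all BC libraries. IAA27, or PAP2, on the minus strand of chromosome 4 from 14323296 to 14325361, was the lowest of this group. Its level was 15.6, 20.4 and 18.6 FPKM in 32E, 0.18, 0.34 and 0.29 in 32S, 0.12, 0.09 and 0 in AC, and listed at 0 in BC. Both genes were therefore high in the same 3 libraries as IAA18. The end of IAA27 overlaps 41 bases of AT4G29070 on the opposite strand, a gene at 33.4 to 59.3 FPKM in 32E against 215 to 310 FPKM in 32S libraries, and no strand setting is named for the FPKM step, so reads of the overlap cannot be assigned to either gene with certainty.

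Of the 17060 genes, the pattern of IAA18 over the 12 libraries was most like that of SHR (AT4G37650), which encodes the SHORT-ROOT factor. Pearson's r was 1.000 on log2(FPKM + 1). The next were AT5G50915 and AT3G44960, also at 1.000 to 3 decimals. SHR was at 24.2, 27.0 and 25.7 FPKM in 32E and listed at 0 in the other 9 libraries. With 9 of 12 points at or near 0, such a correlation says mainly that the same 3 libraries were high. IAA26 followed IAA18 with r = 0.999 and IAA27 with r = 0.997.

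IAA12 and IAA13, the pair that is closest in sequence, shared a direction between lineages at the later stage but not the same history. IAA12 lies on the plus strand of chromosome 1 from 1240294 to 1242157. Its level was 54.5, 61.0 and 46.3 FPKM in 32E, 21.2, 19.8 and 20.9 in 32S, 28.1, 25.1 and 18.4 in AC, and 0, 0 and 1.40 in BC. IAA12 was thus present in the apical lineage from the first division, whereas in the basal lineage it was near 0 in BC and present in every 32S library. The log2 difference was 1.34 between 32E and 32S (SE 0.31, adjusted p = 0.00238), 4.19 between AC and BC (SE 0.31, adjusted p = 6.14e-07) and 4.01 between 32S and BC (SE 0.31, adjusted p = 3.14e-07) in limma's test. AC and 32S, the neighbours in the order of levels, overlapped. The rise in 32E over AC was 1.16 (SE 0.31, adjusted p = 0.00859, limma), with no overlap between the libraries of these groups. Its call was lost without any 1 of the 32E, 32S or AC libraries, at values of 0.99 to 1.28 with adjusted p of 0.011 to 0.0382. Over all alternatives its adjusted p ranged between 2.07e-04 and 0.26. Leaving out 32E replicate 2 also ended the call between 32E and 32S, at 1.24 (adjusted p = 0.0124, against a range of 3.07e-05 to 0.173 over all alternatives).

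IAA13, on the minus strand of chromosome 2 from 14113025 to 14116089, was listed at or near 0 after the first division. It was at 34.6, 42.6 and 48.6 FPKM in 32E and 12.9, 13.1 and 11.5 in 32S, against 0, 0.04 and 0 in AC and 0 in all BC libraries. Both later groups lay above both earlier groups with no overlap, and 32E lay above 32S by 1.65 on the log2 scale (SE 0.19, adjusted p = 1.01e-05, limma). IAA13 overlaps AT2G33300 on the opposite strand over 1176 bases, and that gene was listed at 0 in all 12 libraries. The genes most like IAA13 in pattern were AT1G29950 (r = 0.997), AT2G26730 (r = 0.997) and THE1 (AT5G54380, r = 0.996), a receptor kinase gene of cell wall sensing.

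The 300 bases before the annotated start of each gene were searched on both strands for TGTCTC and TGTCGG, a pair of auxin response elements that ARFs are known to bind and that share only their first letters. The second, TGTCGG, was present before 4 of the 10 genes (IAA12, IAA13, IAA16 and IAA27), before 2 of the 19 other family members and before 4.91% of 27443 protein-coding genes. TGTCTC was present before 2 of the 10 (IAA8 and IAA27), before 9 of the 19 other family members and before 12.97% of all. The related IAA12 and IAA13 carry TGTCGG in similar surroundings, shown here in capitals on the coding strand of each gene, 38 and 100 bases before the start. A match is a description and not a binding site. The windows are chr1:1240244-1240273 and chr2:14116172-14116201 in TAIR10.1.
IAA12: caggtttgattaTGTCGGaagacaagtttt
IAA13: caagtttgataaTGTCGGgaagaaaagtta

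IAA8 and IAA9 were the most abundant pair, and in 32S the first was higher and the second lower than in BC. IAA8 lies on the plus strand of chromosome 2 from 9636346 to 9638761. It was at 281, 327 and 308 FPKM in 32E, 507, 594 and 553 in 32S, 101, 112 and 74.2 in AC, and 122, 129 and 153 in BC. It was higher at the later stage in both lineages, by 1.68 in 32E over AC (SE 0.14, adjusted p = 2.61e-06) and by 2.03 in 32S over BC (SE 0.14, adjusted p = 1.62e-07) on limma's log2 scale. The lineage differences of IAA8 passed the p threshold but not the fold, with 32E minus 32S at -0.85 (SE 0.14, adjusted p = 2.56e-04) and AC minus BC at -0.51 (SE 0.14, adjusted p = 0.00994). IAA8 was the 1 gene of the 10 that was not called between 32E and 32S.

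IAA9, which is known from tomato as a repressor of fruit set, lies on the plus strand of chromosome 5 from 26253408 to 26256544. It was at 340, 366 and 312 FPKM in 32E, 66.0, 75.3 and 71.3 in 32S, 161, 116 and 145 in AC, and 220, 206 and 204 in BC. Of the 10 genes it was the only one called higher in 32E than in AC and lower in 32S than in BC. The log2 difference was 1.27 in 32E over AC (SE 0.12, adjusted p = 4.43e-06), and in 32S it fell by 1.56 against BC (SE 0.12, adjusted p = 2.55e-07, limma). Between lineages it was 2.24 higher in 32E than in 32S (SE 0.12, adjusted p = 9.92e-09), while AC minus BC was -0.59 (SE 0.12, adjusted p = 0.00105), under the fold required. None of the 4 groups overlapped for IAA8 or for IAA9. The ratio of IAA8 to IAA9 in a library was 0.825 to 0.987 in 32E, 7.68 to 7.89 in 32S, 0.513 to 0.963 in AC and 0.555 to 0.748 in BC. The 32S libraries were thus the only ones with more IAA8 than IAA9.

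IAA10 and IAA11, which share 55.5% of aligned residues, were higher in the suspensor than in the embryo proper. IAA10, on the plus strand of chromosome 1 from 1059470 to 1061209, was at 14.1, 11.01 and 1.49 FPKM in 32E, 80.5, 75.0 and 75.6 in 32S, 8.95, 6.08 and 10.5 in AC, and 4.69, 29.7 and 5.09 in BC. All 32S libraries lay above the other 9, and the other groups overlapped each other. The log2 difference was -3.35 for 32E minus 32S (SE 0.70, adjusted p = 0.00121) and 2.93 for 32S minus BC (SE 0.70, adjusted p = 0.00267) in limma's test. BC replicate 2 stood apart from the other BC libraries, and 32E replicate 3 from the other 32E libraries. The call between 32S and BC was lost without BC replicate 1 or 3, at 2.51 to 2.56 (adjusted p of 0.0138 to 0.0142, against 2.83e-04 to 0.0142 over all alternatives). IAA10 overlaps 619 bases of AT1G04105 on the opposite strand, a gene not analysed here.

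IAA11, on the plus strand of chromosome 4 from 14142063 to 14143969, changed its favoured lineage with stage. It was at 12.4, 15.1 and 11.95 FPKM in 32E, 32.8, 25.1 and 28.7 in 32S, 30.7, 23.6 and 37.9 in AC, and 7.27, 13.6 and 6.47 in BC. The levels in AC and 32S overlapped, as did those in 32E and BC. On limma's log2 scale IAA11 was higher in AC than in BC by 1.69 (SE 0.26, adjusted p = 1.45e-04) and higher in 32S than in BC by 1.62 (SE 0.26, adjusted p = 1.33e-04). It was lower in 32E than in 32S, at -1.07 (SE 0.26, adjusted p = 0.00289), and lower in 32E than in AC, at -1.15 (SE 0.26, adjusted p = 0.00299). The call against 32S was lost without 32E replicate 1 or 3 or 32S replicate 1 or 3, at -1.07 to -0.98 (adjusted p of 0.0105 to 0.0135, against 5.40e-04 to 0.0135 over all alternatives). The call against AC was lost without 32E replicate 1 or 3 or AC replicate 1 or 3, at -1.14 to -0.99 (adjusted p of 0.0105 to 0.0156, against 6.50e-04 to 0.0156 over all alternatives).

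IAA16, a relative of IAA7, IAA14 and IAA17, was highest in AC, and its highest library was below that of each of the other 9 genes. It lies on the minus strand of chromosome 3 from 1288155 to 1290891. Its level was 0.11, 0.40 and 0 FPKM in 32E, 1.93, 1.19 and 1.56 in 32S, and 6.48, 4.91 and 7.26 in AC, and it was listed at 0 in BC. AC lay above 32S and 32S above 32E with no overlap. IAA16 was lower in 32E than in AC by a log2 difference of -2.63 (SE 0.19, adjusted p = 7.97e-07) and lower in 32E than in 32S, at -1.13 (SE 0.19, adjusted p = 2.71e-04, limma). The difference from 32S was no longer a call with a pseudocount of 5, at -0.34. IAA16 and IAA11 had the most similar patterns outside the 32E group, with r = 0.847 over the 12 libraries.

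**Figure D3:**
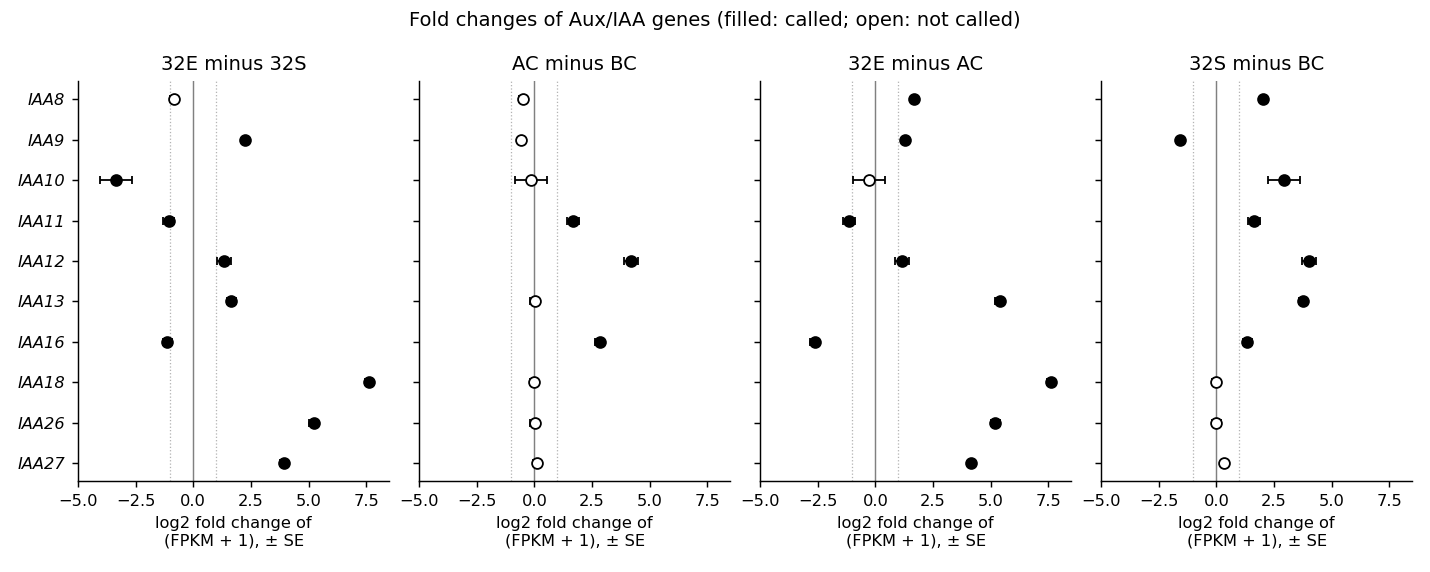
Log2 difference in FPKM + 1 of the 10 repressor genes in the 4 comparisons, with standard errors, filled where called. Dotted lines mark a difference of 1 in size, and where a group is listed at 0 the value depends on the pseudocount. Values lie on both sides of 0 between 32E and 32S, and only IAA11, IAA12 and IAA16 are filled between AC and BC.

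Whether the lineage difference itself changed with stage was tested as the interaction, (32E minus 32S) minus (AC minus BC). It was called for 8 of the 10 genes, higher for IAA9, IAA13, IAA18, IAA26 and IAA27 and lower for IAA11, IAA12 and IAA16. The calls of IAA18, IAA26 and IAA27 restate the filter, and without them 2 of 7 genes were higher and 3 lower, where 27% of all genes were called higher and 25.8% lower. The median was 0.65 over the 10 genes and 0.03 over all genes, but the first includes these 3 genes and is no measure of a shift. The values of the other 7 lay on both sides of 0, from -3.97 for IAA16 to 2.83 for IAA9. Among these 7, IAA13 was listed at or near 0 in AC and BC. Its interaction call thus restates its 32E minus 32S difference and is a description. For IAA9, IAA11 and IAA16 the sign of the lineage difference was opposite at the 2 stages. IAA11 and IAA16 were higher in 32S at the later stage and in AC at the earlier, with calls at both, and IAA9 was higher in 32E and in BC, where the earlier difference was under the fold required. The interaction of IAA8 was -0.35 (SE 0.20, adjusted p = 0.153, limma). That of IAA10 was -3.21 (SE 0.99, adjusted p = 0.0131) and became a call without 32E replicate 1 or BC replicate 2, at -3.70 and -4.01 (adjusted p of 0.00903 and 0.00144, against 0.00144 to 0.0351 over all alternatives).

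Of the 19 other family members, 8 passed the filter on low values. Of these, 6 were higher and 1 lower in 32E than in AC, against 13.1% and 14.3% of all genes. In 32S, 5 were higher and 1 lower than in BC, against 25.3% and 26.7%. Every gene called across stage here passed the filter through libraries of 1 stage alone, so these counts restate the filter and are a description. Between 32E and 32S only IAA20, at 1.11 to 2.21 FPKM in 32E and listed at 0 in 32S, was called, and between AC and BC IAA33 was higher and IAA3 lower. These 3 genes passed the filter through 1 group each (IAA20 through 32E, IAA33 through AC and IAA3 through BC) and so had to differ, and they are named after their values were seen. IAA1 and IAA30 were the most abundant of these genes. IAA1 was at 88.0, 47.4 and 80.9 FPKM in 32E, 4.69, 79.5 and 23.4 in 32S, 0, 0.08 and 0 in AC, and 0 in BC. IAA30, which lacks the degron core, was at 160, 68.5 and 105 in 32E, 22.2, 100.4 and 41.0 in 32S, and listed at 0 in AC and BC. In both genes 32S replicate 2 was above the lowest 32E library, so that 32E and 32S overlapped. IAA19 spanned 10.7 to 12.5 FPKM in 32E, against 7.03 to 33.4 FPKM in 32S, and IAA2 spanned 9.12 to 19.1 FPKM in 32E, against 7.20 to 8.10 FPKM in 32S. Both were listed at 0 in AC and BC. Without 32S replicate 2, 3 of these genes were called between 32E and 32S in place of 1. In the same library PDF1, an epidermal gene of the embryo proper, was at 1941 FPKM, against 503 and 897 in the other 32S libraries. Of the other embryo proper markers, ATML1 was at 32.5 there, against 14.0 and 19.2, and WOX2 at 1.98, against 0 and 0.42. DRN was at 0.92, against 0.86 and 0.98, and HAN was listed at 0, as were IAA18 and IAA26. The part of this library in these values was not tested. The counts of calls among the 10 genes without this library were 9 between 32E and 32S, 7 between 32S and BC and 8 in the interaction, equal to those with it.

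The partners of the repressors were compared next. Of 15 ARF genes that passed the filter, out of 23, 4 were higher in 32E than in 32S (ARF3, ARF5, ARF8 and ARF11) and 2 lower (ARF10 and ARF16), beside 23.8% and 22.6% of all genes, so that these counts are near the background. ARF5 was at 118, 148 and 186 FPKM in 32E, 33.1, 47.3 and 37.6 in 32S, 10.3, 7.66 and 13.5 in AC, and 45.6, 38.4 and 41.5 in BC. Its difference was 1.90 for 32E minus 32S (SE 0.21, adjusted p = 7.62e-06) and -1.93 for AC minus BC (SE 0.21, adjusted p = 1.21e-05, limma). At the earlier stage ARF5 was thus lower and its repressor IAA12 higher in AC than in BC, whereas both were higher in 32E than in 32S. ARF9 was at 20.2, 21.6 and 23.3 in 32E, 17.4, 17.5 and 17.8 in 32S, 14.2, 10.3 and 16.1 in AC, and 9, 13.9 and 7.65 in BC. It was called in none of the comparisons, with 32E minus 32S at 0.29 (SE 0.22, adjusted p = 0.267), where IAA10 was lower in 32E.

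**Figure D4:**
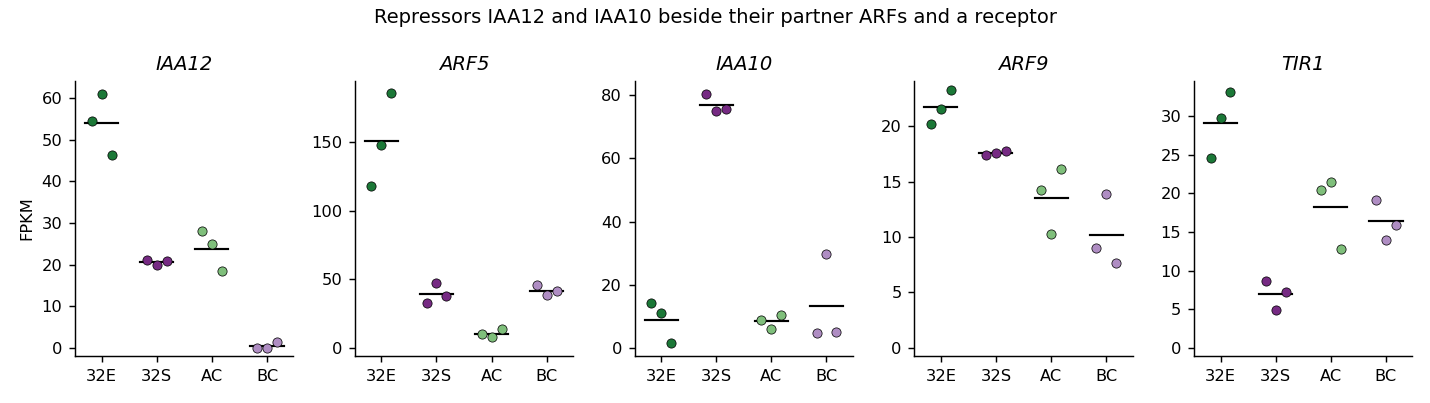
FPKM in each library of IAA12 beside ARF5, of IAA10 beside ARF9, and of the receptor gene TIR1, with bars at the mean of 3 libraries. ARF5 is lowest in AC, at 7.66 to 13.5, while IAA12 is at 18.4 to 28.1 there, and ARF9 spans 7.65 to 23.3 over all libraries.

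ARF16 and ARF10, which like each other are targets of a microRNA, were lower in 32E. ARF16 was at 0 to 0.03 FPKM in 32E, against 13.3 to 46.2 FPKM in 32S, and ARF10 at 1.34 to 2.23 FPKM in 32E, against 34.5 to 43.4 FPKM in 32S. ARF3 (ETTIN) was at 72.7 to 111 FPKM in 32E, against 1.51 to 3.63 FPKM in 32S. Of the 6 auxin receptor genes, TIR1 and AFB5 were higher in 32E than in 32S and none was lower, beside the same 23.8% and 22.6% of all genes. TIR1 was at 24.6, 29.8 and 33.2 FPKM in 32E, 8.62, 4.94 and 7.29 in 32S, 20.4, 21.5 and 12.8 in AC, and 19.2, 14.0 and 15.9 in BC, with a log2 difference of 1.94 for 32E minus 32S (SE 0.24, adjusted p = 2.00e-05, limma). AFB5 was at 21.2 to 24.9 FPKM in 32E, against 1.62 to 1.81 FPKM in 32S.

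The same shares of all genes, 23.8% higher and 22.6% lower, stand beside the next lists. Of the 5 corepressor genes, TPL and TPR1 were higher in 32E than in 32S and none was lower. TPL was at 47.7 to 52.1 FPKM in 32E, against 17.1 to 20.5 FPKM in 32S, and TPR1 at 21.5 to 26.6 FPKM in 32E, against 1.39 to 5.04 FPKM in 32S. Of 7 genes of the SCF ubiquitin ligase and its NEDD8 cycle, AXR1 and ECR1, which together encode the NEDD8-activating enzyme, were higher in 32E and none was lower. Of 7 GH3 genes, whose enzymes conjugate auxin to amino acids, 3 passed the filter. GH3.2 was lower in 32E, at 1.45, 2.87 and 1.41 FPKM, than in 32S, at 143, 390.4 and 209, and was listed at 0 in AC and BC.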

How the data were processed

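RNA of 12 samples was extracted, amplified by a SMART method (labels and paper name different kits) and sequenced by the authors, who deposited FPKM values per gene, made with RSEM against TAIR10. The paper names Bowtie 2 and the submitters' processing notes name TopHat2 2.1.1, so the aligner is not settled. Labels give the earlier stage as a 2-cell embryo. Depth was not used, since no counts were at hand, and the precision rests on 3 replicates per group.

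Groups were taken from the labels. The 17060 genes above FPKM 1 in 3 or more libraries entered a limma model (version 3.58.1, R 4.3.3) of log2(FPKM + 1), with 4 group means, a trended prior (8 residual and 3.24 prior degrees of freedom) and Benjamini-Hochberg adjustment over all of them. Fold and adjusted p thresholds were those of the study. The fit was tested on simulated data. Gene models, codons and upstream windows came from TAIR10.1 with python 3.11.15 and biopython 1.88. Protein identity was computed from global alignments of translated coding sequences.

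The 10 genes and all lists were chosen with earlier results of these data known. Named were the 10 genes, other family members with a mean above 10 FPKM in a group, the 3 most changed called genes of each partner list with ARF5, ARF9 and TIR1, and the 3 genes most like IAA18 and IAA13. Alternatives were pseudocounts of 0.1 and 5, no filter, a filter at 5, median-ratio scaling, rescaling to TPM, a model of the 2 groups compared, a replicate block and leaving out each library over the same genes.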

Additional observations from a re-analysis of the deposited data

Results flagged for a closer look

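By limma's interaction test the lineage difference of 5 genes differed between the stages, that of IAA13 only as a description. That of 3 more was fixed by the filter on low values. The difference of the log2 differences, (32E minus 32S) minus (AC minus BC), was 2.83 for IAA9 (SE 0.17, adjusted p = 6.87e-08), -2.77 for IAA11 (SE 0.36, adjusted p = 3.80e-05) and -2.86 for IAA12 (SE 0.44, adjusted p = 1.29e-04). For IAA13 it was 1.64, which restates the 32E minus 32S value of 1.65, since AC and BC were listed at or near 0. The difference of the log2 differences was -3.97 for IAA16 (SE 0.28, adjusted p = 2.37e-07). It was 7.61 for IAA18, 5.20 for IAA26 and 3.82 for IAA27, which entered the fit through the 32E libraries alone, so that their values restate the filter and are given as a description. The values of IAA12, IAA13, IAA16, IAA18, IAA26 and IAA27 depend on the pseudocount, since a group of each was listed at 0 in at least 2 libraries, and are no bounds.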

How the results depend on the processing

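The counts of calls among the 10 genes stayed within 1.5 times under every alternative. Leaving out 1 library, over the same 17060 genes, gave 8 to 9 calls for 32E minus 32S, 3 for AC minus BC, 7 to 9 for 32E minus AC, 6 to 7 for 32S minus BC and 8 to 9 for the interaction. Of 845 alternative values of 43 gene results, 808 kept direction and call, 30 lost the call and 4 gained it. The 3 that turned were uncalled values of IAA10. Its AC minus BC value of -0.13 ranged between -0.55 and 0.66 on leaving out 1 library, turning without AC replicate 2 (0.07) and BC replicate 2 (0.66), and its 32E minus AC value of -0.28 ranged between -0.77 and 0.53, turning without 32E replicate 3 (0.53). The cause was not tested.

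A pseudocount of 5 gave 2852 genes called for 32E minus AC, against 4679, ended the calls of IAA11 in both comparisons of 32E (-0.90 against 32S and -0.96 against AC) and of IAA16 between 32S and BC (0.39), and made IAA10 a call in the interaction (-2.54), as median-ratio scaling did (-3.37). A pseudocount of 0.1 ended the calls of IAA12 for 32E minus 32S and 32E minus AC, and the model of the 2 groups alone that of IAA10 for 32S minus BC. Median-ratio scaling moved the median of all genes by 0.16 for 32S minus BC and by -0.14 for the interaction, and by under 0.1 otherwise. Correlations of same-numbered deviations lay between -0.125 and 0.066. With 3 libraries per group they cannot settle whether same-numbered samples came from the same embryos. A replicate block left 9, 3, 8, 7 and 8 calls among the 10 genes in the order above, and lost only IAA12 for 32E minus AC (1.16, adjusted p = 0.0179, against 2.07e-04 to 0.26 over all alternatives). Among the 19 other family members, calls for 32E minus 32S numbered 1, and 0 with a pseudocount of 5 or a filter at 5. The paper lists read totals per library, but without counts per gene unequal depth was not weighed, including for values listed at 0.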
